A study of Mus musculus with 10 samples.

Results

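The nuclear lamina genes were examined at 3.0 days post coitum in mouse embryos profiled singly, 10 in all. They comprised Lmna, Lmnb1 and Lmnb2, which encode the lamins, and Lbr, Emd, Tmpo, Banf1, Sun1 and Sun2, which encode their partners at the inner nuclear membrane. The genes were chosen by name for this role, and every probe set to which the platform annotation gave a listed gene as its single symbol was taken. This gave 23 probe sets for the 9 genes, out of 38676 on the array. No intensity decided which probe sets entered. The list was nevertheless drawn up with the knockout against wild-type results of these arrays known, so that comparison is given below as a description of the members and supports nothing further. The embryos were 5 of wild-type (WT) genotype and 5 with a knockout of Klf5 (Klf5 KO, here KO), a Kruppel-like zinc finger transcription factor, all collected from the oviduct. The labels do not give the strain, the litters or the part of Klf5 that was deleted, and no other allele or treatment is named for either group. Every embryo had an Affymetrix array to itself. The labels' genotype and number (WT1 to WT5 and KO1 to KO5) serve as names below.

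The nuclear lamina is a meshwork of intermediate filaments under the inner nuclear membrane. A-type lamins (lamins A and C, both from Lmna) and B-type lamins (from Lmnb1 and Lmnb2) form the filaments, and membrane proteins with chromatin or cytoskeletal contacts anchor them. B-type lamins are made in nearly all cells, and early embryos and pluripotent cells make both B-type lamins and LBR. A-type lamins are low in such cells and increase with differentiation and in stiff, epithelial or mesenchymal tissues. LBR and lamin A/C are known as alternative tethers of heterochromatin at the nuclear edge.

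The array medians lay between 39.9 and 43.5 in intensity. At a Klf5 probe set (1451021_a_at) the WT embryos read 1096 to 4183 and the KO embryos 14.0 to 49.2, so each embryo followed its label there, while the other tested Klf5 probe set read 440 to 783 in the WT and 687 to 1246 in the KO group. Whether either lies in the deleted part is not given in the labels. All 3 inner cell mass markers (Pou5f1, Nanog, Sox2) and all 4 trophectoderm markers (Cdx2, Krt8, Krt18, Gata3) lay above the level filter described next. Markers of cells that could cling to an embryo were dim: of those on the table, 4 of 6 cumulus and granulosa genes, 2 of 4 oviduct genes and 2 of 4 blood and immune genes lay above the filter, and their summed intensities were at most 325 in any embryo. WT4 and WT5 stood apart from the other 8 embryos in the difference between 3′ and middle control probe sets, a measure of transcript length recovered. This held for actin (3.96 to 4.61 against 2.68 to 3.51 log2 units), Gapdh (3.62 to 4.12 against at most 3.36) and the lys control (2.59 to 3.03 against 1.12 to 1.99). Their 90th percentile intensities were also lower (420 to 424 against 470 to 550). The bioB hybridisation control divided the arrays into a high set (WT1 to WT3, KO1, KO2; 8.36 to 8.95) and a low set (WT4, WT5, KO3 to KO5; 6.16 to 6.69 log2 units). No label ties the embryos to separate litters, so every spread below is between these single embryos. In whole embryos, fewer cells of a type and less RNA per cell cannot be told apart.

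Levels are given as intensity per embryo and as log2(intensity + 16). A difference is the KO mean minus the WT mean on this log2 scale, which understates changes of dim probe sets. Intensities are compared only within a probe set. Of the 23 probe sets, 20 passed the level filter (a mean over the 10 arrays of at least 5.55 on the log2 scale), and each of the 9 genes kept at least 1. The edge of the filter ran between Lmna 1426868_x_at and Tmpo 1433026_at, just inside at a mean of 5.55 each, and Tmpo 1426349_s_at, just outside at 5.37. The other probe sets outside were Tmpo 1426020_at (5.12) and Lmnb2 1451849_a_at (4.85).

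Among the 9 genes, the A-type lamin gene Lmna showed the largest fall in KO embryos, at 1 of its 5 probe sets. The B-type lamin genes and the membrane partners gave no call, and the largest difference upward was that of Sun1. By limma with Benjamini-Hochberg adjustment over all 23174 tested probe sets, 1 of the 20 nuclear lamina probe sets was called at an adjusted p under 0.05, where 0.367% of all tested probe sets were called in either direction and 0.246% were called lower in KO. As the list was drawn up with this comparison known, nothing is read from that count. Of the 20, 10 had a lower and 10 a higher mean in KO embryos, with a median difference of 0.005 (all tested probe sets: -0.003, with 50.6% lower). At the brightest probe set of each gene, 3 genes were lower and 6 higher, with a median of 0.15. The median SD between embryos of 1 genotype was 0.44 log2 units for these probe sets and 0.28 for all tested probe sets. These medians were not matched for level, and the log2 scale used understates changes of dim probe sets. The 3 Banf1 probe sets, with WT SDs of 0.96 to 1.13, were also counted separately. The larger median is therefore not read as a trait of the members.

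**Figure D1:**
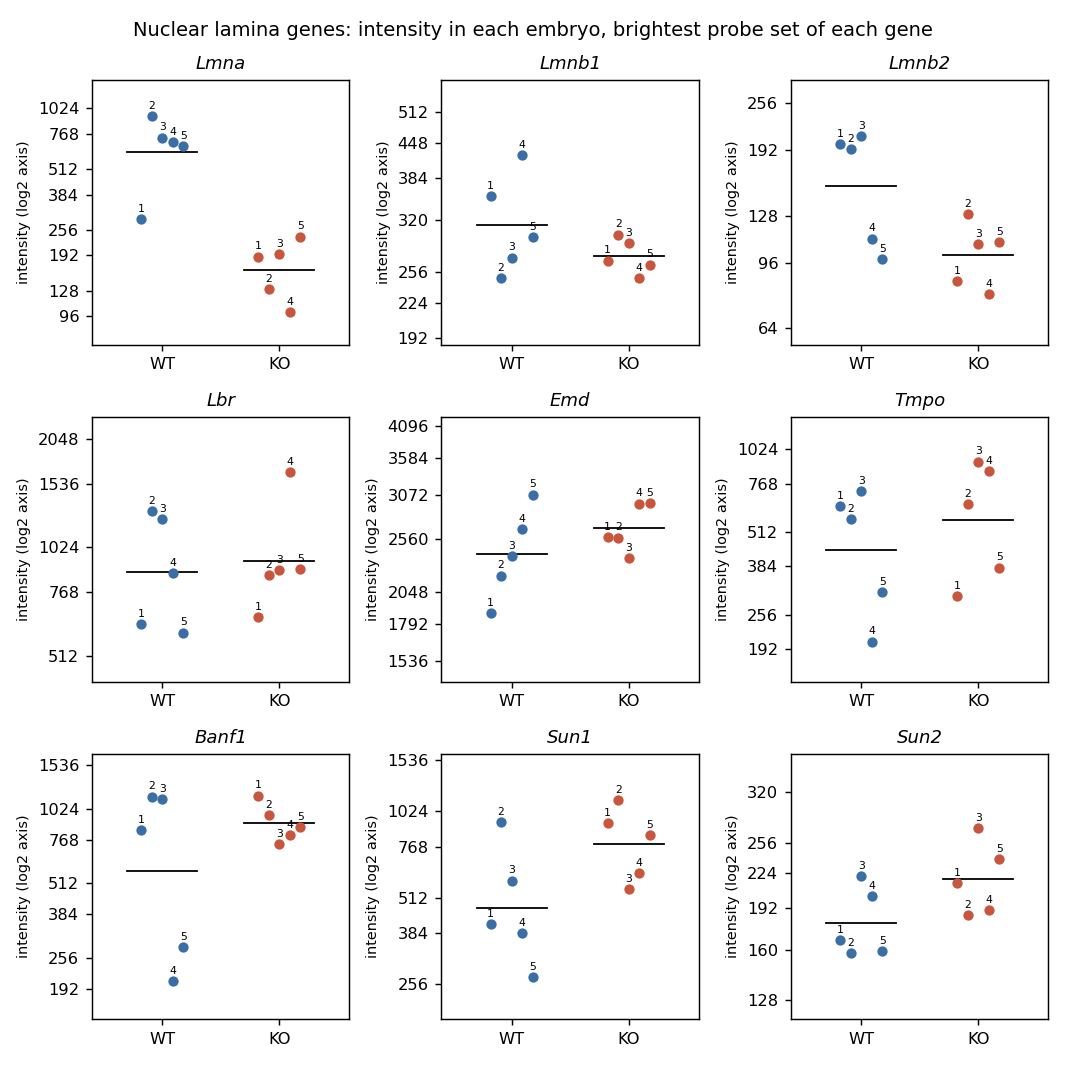
Intensity (log2 axis, different range in each panel) of the brightest probe set of each of the 9 genes in the 5 WT (blue) and 5 KO (red) embryos; points are single embryos labelled with their number and the bar is the geometric mean. For Lmna all 5 KO embryos lie below all 5 WT embryos (101 to 238 against 289 to 941), whereas the genotypes overlap for the other 8 genes, and for Banf1 WT4 and WT5 lie far below the rest.

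Lmna encodes lamins A and C, which differ in their C-terminal tails and arise by alternative splicing. At its brightest probe set, 1457670_s_at, the intensities were 289, 941, 735, 697 and 665 in WT1 to WT5 and 189, 130, 194, 101 and 238 in KO1 to KO5. WT1 was the lowest WT embryo and KO5 the highest KO embryo, and the genotypes did not overlap. The mean level was 9.32 ± 0.63 (SD, n = 5) for WT and fell to 7.49 ± 0.45 (SD, n = 5) for KO, a difference of -1.83 with a standard error of 0.31, or 3.56-fold lower, and the limma adjusted p was 0.0430. The suffix _s_at marks probes that are shared by more than 1 transcript, so this probe set cannot assign the difference to lamin A or C, and transcripts of other genes that share its probes are not listed in the annotation used here.

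The call was close to the threshold, while the size of the difference moved little. With the bioB set as a block the difference was -1.86 (adjusted p = 0.0638), and within the high and low sets it was -1.80 and -1.92. Without WT4 and WT5 it was -1.75 (adjusted p = 0.129). Leaving out WT1 gave -2.10 (adjusted p = 0.00911), and leaving out any other single embryo ended the call, with differences of -1.96 to -1.68 and adjusted p from 0.0573 to 0.107. In the block fit 0 of the 20 probe sets were called by limma (0.298% of all; 9 of 20 and 2596 of 23174 had an unadjusted p under 0.05). Without WT4 and WT5 it was also 0 of 20 (0.315% of all; 6 and 2847 at an unadjusted p under 0.05). In the fit of all arrays without a block, 6 of 20 and 2329 of 23174 had an unadjusted p under 0.05. Several of the 20 probe sets belong to the same gene, and the list was drawn up with this comparison known. Nothing is read from these counts.

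The other Lmna probe sets were read beside it, since 1 gene should give 1 pattern where its probe sets report the same transcripts. At 1421654_a_at the WT embryos read 239, 400, 479, 221 and 203 and the KO embryos 175, 177, 193, 155 and 137. Again the highest KO embryo (KO3) lay below the lowest WT embryo (WT5), by a small margin. The WT level was 8.26 ± 0.53 and the KO level 7.51 ± 0.17 (SD, n = 5 each). The difference of -0.75 had a standard error of 0.23 and gave no call, with an adjusted p of 0.247 by limma, and it was -1.04 without WT4 and WT5. Within the high-bioB set it was -0.97 and within the low-bioB set -0.37. These were the 2 of 20 nuclear lamina probe sets at which the genotypes did not overlap, a property of 2.33% of all tested probe sets. Both belong to Lmna, and the list was drawn up with this comparison known, so nothing is read from that count.

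At 1425472_a_at the intensities were 208, 310, 322, 291 and 258 in WT and 243, 179, 225, 193 and 219 in KO embryos. All WT embryos except WT1 lay above all KO embryos, and the difference was -0.36 with a standard error of 0.13. The remaining probe sets, 1452212_at and 1426868_x_at, were dim, at 34.4 to 65.3 and 21.7 to 37.5 over the 10 embryos, and differed by -0.14 and -0.05. Over the 10 embryos, 1457670_s_at correlated with 1425472_a_at at r = 0.91 and with 1421654_a_at at r = 0.75, and with the dim probe sets at 0.30 and 0.25. These values are descriptions over arrays of both genotypes. All 3 brighter probe sets had a lower mean in KO embryos, with sizes of 3.56-fold at the called one and 1.68-fold and 1.28-fold at the others.

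**Figure D2:**
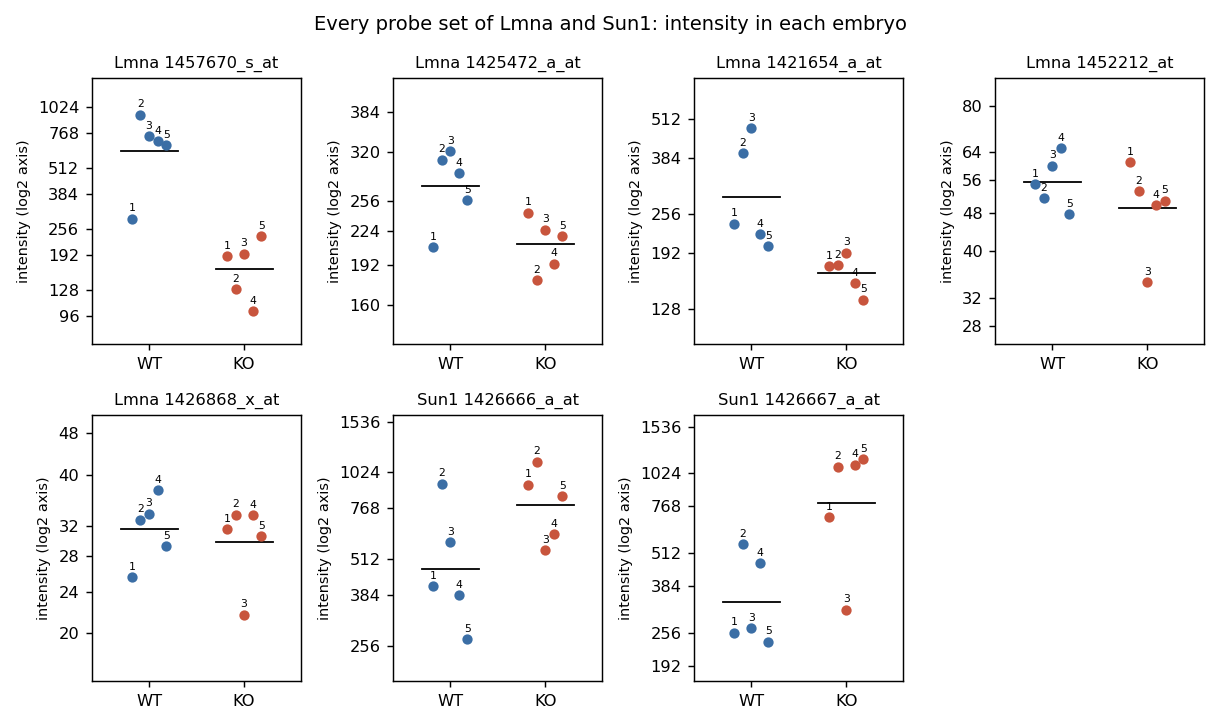
Intensity (log2 axis, different range in each panel) at all 5 Lmna and both Sun1 probe sets in the 5 WT (blue) and 5 KO (red) embryos, with embryo numbers and the geometric mean as a bar. The genotypes are apart at Lmna 1457670_s_at and 1421654_a_at, WT1 alone overlaps the KO embryos at 1425472_a_at, and the dim probe sets overlap; at Sun1 1426667_a_at, KO3 (313) lies among the WT embryos (237 to 553) and the other 4 KO embryos (699 to 1162) above them.

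The keratin Krt8, a trophectoderm marker, was also lower in KO embryos. The summed intensity of the 4 trophectoderm markers, of which the keratins were the brightest, was 16135 to 33916 in the WT and 3576 to 6100.1 in the KO group, without overlap. Of these markers the simple epithelial keratin Krt8 was called (difference -2.94, limma adjusted p = 0.00118), and Krt18 (-2.20, 0.0541), Cdx2 (-0.28) and Gata3 (0.47) were not. The summed inner cell mass markers were 325 to 2616 in the WT and 1201 to 3561 in the KO group. None of the 3 was called. Without WT4 and WT5 the difference of Nanog turned from 0.91 to -0.35, that of Sox2 went from 1.06 to 0.52, and that of Pou5f1 from -0.29 to -0.62. The summed blood and immune markers overlapped narrowly (147 to 179 in WT, 127 to 151 in KO). Of these, Cd52 was lower in KO embryos without a call (difference -0.47, limma adjusted p = 0.129). The summed cumulus and granulosa (240 to 307, 258 to 325) and oviduct markers (88.8 to 126, 86.8 to 119) also overlapped. None of the markers on the table was listed at 0. The part of these markers in the Lmna difference was not tested.

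Klf5 and related factors bind CACCC and GC boxes, so the RefSeq promoter windows of the members (GRCm38.p6, 250 bases before to 50 after an annotated start) were searched for CACCC and for GGGCGG, each on both strands. The motifs were counted separately, and matches may overlap. Windows were found for 8 of the 9 genes, all but Lmnb1. The Lmna windows are shown because Lmna carried the largest difference, with matches in capitals, 5′ to 3′ on the minus strand. Both windows belong to starts inside the gene, downstream of its outermost annotated start. The first lies at chr3:88503303-88503602 and the second at chr3:88493263-88493562.
Lmna first window: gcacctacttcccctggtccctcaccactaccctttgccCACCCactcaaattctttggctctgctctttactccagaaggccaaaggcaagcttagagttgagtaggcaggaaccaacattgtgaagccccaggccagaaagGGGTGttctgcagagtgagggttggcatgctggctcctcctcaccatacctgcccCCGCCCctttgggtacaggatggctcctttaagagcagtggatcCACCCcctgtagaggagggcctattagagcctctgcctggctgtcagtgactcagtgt
Lmna second window: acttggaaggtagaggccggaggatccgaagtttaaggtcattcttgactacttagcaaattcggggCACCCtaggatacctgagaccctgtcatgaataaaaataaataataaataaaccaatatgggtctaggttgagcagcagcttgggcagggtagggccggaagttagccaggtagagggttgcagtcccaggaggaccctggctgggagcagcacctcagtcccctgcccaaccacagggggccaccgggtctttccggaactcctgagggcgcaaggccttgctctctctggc

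The first Lmna window held 3 matches to CACCC and 1 to GGGCGG, and the second held 1 and 0. Of 32851 RefSeq windows of this length, 57.5% held CACCC, 35.7% held GGGCGG and 23.8% held both, so such matches are common. Of the windows not printed, Lbr held 2 matches to each motif, Emd 0 to CACCC and 1 to GGGCGG, and Sun2 0 and 5. The Tmpo windows held 3 and 4 in one and 0 and 0 in the other, and the Banf1 windows 0 and 1, and 1 and 4. The second windows of Lmnb2 and Sun1 held 0 and 0. Lmnb1 had no window and the Lmna windows are not at its outermost start, so the counts are not compared between genes. The part of such matches in the differences was not tested. A match describes the letters and was not measured as a binding site here.

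Lmnb1 and Lmnb2 encode the B-type lamins, which stay farnesylated and attached to the membrane. The brighter Lmnb1 probe set, 1423521_at, read 355, 249, 272, 425 and 298 in WT and 269, 301, 290, 249 and 264 in KO embryos. WT4 and WT1 were the highest embryos, the KO embryos lay close together, and the groups overlapped. The WT level was 8.37 ± 0.29 and the KO level 8.18 ± 0.10 (SD, n = 5 each), a difference of -0.19 with a standard error of 0.14, and of -0.08 without WT4. The second Lmnb1 probe set, 1423520_at, ranged from 95.8 to 285 in WT and from 93.7 to 268 in KO embryos and differed by -0.17. Its sign turned without WT5 (0.01), without WT4 and WT5 (0.10) and within the high-bioB set (0.38, against -0.77 within the low-bioB set). The correlation between the Lmnb1 probe sets over the 10 embryos was 0.39.

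At Lmnb2 1448531_at the WT embryos read 199, 193, 209, 111 and 97.9 and the KO embryos 85.7, 130, 108, 79.0 and 109. WT1, WT2 and WT3 lay above every KO embryo, while WT4 and WT5 lay within the KO range. The WT level was 7.42 ± 0.47 and the KO level 6.87 ± 0.25 (SD, n = 5 each), a difference of -0.55 with a standard error of 0.22. Without WT4 and WT5, the embryos with the largest 3′ to middle differences of actin and Gapdh, it was -0.89, with an adjusted p of 0.0645 by limma. Within the high-bioB set it was -0.83 and within the low-bioB set -0.08. The other Lmnb2 probe set, 1451849_a_at, read between 10.6 and 15.7 in all embryos and was below the filter.
The Lmnb2 window at the outermost start (chr10:80918196-80918495, minus strand) is shown because Lmnb2 had the next largest lamin difference, and held 1 match to each motif.
Lmnb2 window: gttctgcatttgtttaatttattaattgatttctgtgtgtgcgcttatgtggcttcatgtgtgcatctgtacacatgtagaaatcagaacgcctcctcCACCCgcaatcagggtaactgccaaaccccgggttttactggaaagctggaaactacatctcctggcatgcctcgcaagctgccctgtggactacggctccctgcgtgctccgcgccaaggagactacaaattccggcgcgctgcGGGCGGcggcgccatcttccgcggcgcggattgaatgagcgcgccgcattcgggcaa

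The partners that tie the lamina to membrane and chromatin gave no call, and their spreads differed. At the brightest probe sets the WT SD ran from 0.21 (Sun2) to 1.13 (Banf1). Lbr encodes the lamin B receptor, a membrane protein that binds B-type lamins and heterochromatin and also has sterol reductase activity. Its probe set read 627, 1293, 1228, 870 and 594 in WT and 657, 857, 885, 1657 and 893 in KO embryos. KO4 was the highest and WT5 the lowest embryo, and 4 of the 5 KO embryos lay within the WT range. The difference was 0.10 with a standard error of 0.29, and it was -0.41 within the high-bioB and 0.60 within the low-bioB set.

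Emd encodes emerin, a LEM domain protein of the inner membrane that binds lamins and the chromatin bridge protein BAF. Its intensities were 1880, 2198, 2385, 2670 and 3081 in WT and 2585, 2575, 2365, 2968 and 2978 in KO embryos. All KO embryos lay within the WT range, and the SD was 0.27 in WT and 0.14 in KO embryos (n = 5). The difference was 0.15 with a standard error of 0.14, and 0.32 without WT4 and WT5.

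Tmpo encodes the LAP2 proteins, LEM domain proteins made as membrane-bound and nucleoplasmic isoforms by alternative splicing. The brightest of its 5 probe sets, 1452036_a_at, read 636, 569, 722, 204 and 309 in WT and 300, 647, 924, 851 and 380 in KO embryos. WT4, WT5, KO1 and KO5 were low and the other 6 embryos high, so low and high embryos occurred in both genotypes. The difference was 0.35 with a standard error of 0.41, and its sign turned within the high-bioB set (-0.52, against 1.36 within the low-bioB set) and without WT4 and WT5 (-0.17). At 1428976_at the range was 227 to 682 in the WT and 223 to 476 in the KO group, with a difference of -0.39. The correlation between these probe sets was 0.22 over the 10 embryos. The other Tmpo probe sets read at most 39.0 in any embryo, and the correlations that involve them ran from -0.73 to 0.61.

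Banf1 encodes BAF (barrier-to-autointegration factor), a small DNA-binding protein that bridges chromatin to LEM domain proteins and helps to rebuild the nucleus after mitosis. At the brightest of its 3 probe sets, 1421082_s_at, the intensities were 841, 1145, 1119, 205 and 283 in WT and 1157, 966, 736, 801 and 861 in KO embryos. WT4 and WT5 were the lowest of all 10 embryos, and the other 3 WT embryos overlapped the KO embryos. The 3 probe sets correlated with each other at 0.97 to 0.99, and at each WT4 and WT5 lay below every other embryo. The mean of WT4 and WT5 minus that of the other 3 WT embryos was -2.02 log2 units at 1421082_s_at, and -1.66 and -1.87 at the others.

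The genotype difference of Banf1 followed these embryos. It was 0.61 with a standard error of 0.46 over all arrays, and -0.20 with a standard error of 0.17 without WT4 and WT5. The other probe sets turned likewise, from 0.38 and 0.38 to -0.28 and -0.36. Within the high-bioB set the 3 differences were 0.04, -0.03 and -0.09, and within the low-bioB set, where WT4 and WT5 are the only WT embryos, 1.66, 1.21 and 1.32. WT4 and WT5 also had the largest 3′ to middle differences of actin, Gapdh and the lys control. The part of these differences in the Banf1 values was not tested.

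**Figure D3:**
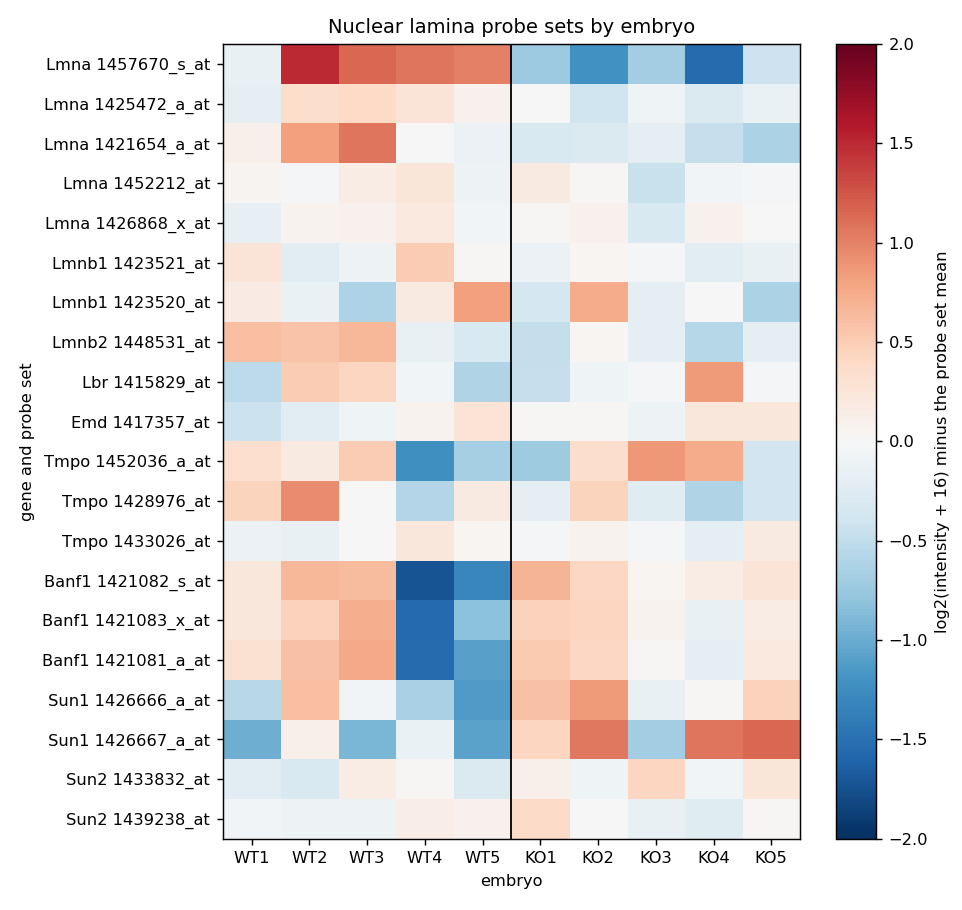
Level of each of the 20 tested probe sets (rows) in each embryo (columns, WT left and KO right of the line), as log2(intensity + 16) minus the mean of the probe set, with red above and blue below the mean. The Lmna 1457670_s_at row is red in WT2 to WT5, slightly below its mean in WT1 (289) and blue in all 5 KO embryos, and the 3 Banf1 rows are blue in WT4 and WT5.

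Sun1 and Sun2 encode the SUN domain proteins, which span the inner membrane, bind lamins inside the nucleus and KASH domain proteins in the space between the membranes, and so couple the lamina to the cytoskeleton. At Sun1 1426667_a_at the WT embryos read 256, 553, 267, 470 and 237 and the KO embryos 699, 1085, 313, 1105 and 1162. Of the KO embryos 4 lay above every WT embryo, and KO3 lay among them. The WT level was 8.46 ± 0.54 and the KO level 9.66 ± 0.78 (SD, n = 5 each). The difference was 1.20 with a standard error of 0.38 (2.29-fold), gave no call with an adjusted p of 0.271 by limma, and was 1.19 without WT4 and WT5. This was the largest difference upward among the 20 probe sets.

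At the brighter Sun1 probe set, 1426666_a_at, the intensities were 413, 937, 586, 384 and 270 in WT and 929, 1116, 549, 624 and 847 in KO embryos. WT2 was higher than 4 of the 5 KO embryos, and the other WT embryos except WT3 were below all of them. The difference was 0.71 with a standard error of 0.31, 0.36 without WT4 and WT5, and 0.72 and 1.003 within the high and low bioB sets. The Sun1 probe sets correlated at 0.73 over the 10 embryos. The direction at both was the same in each of the 23 alternative analyses, though at no alternative was either called (smallest adjusted p = 0.0762).
The Sun1 window at chr5:139200387-139200686 (plus strand) is shown as that of the gene with the largest difference upward, and held 0 matches to CACCC and 4 to GGGCGG.
Sun1 window: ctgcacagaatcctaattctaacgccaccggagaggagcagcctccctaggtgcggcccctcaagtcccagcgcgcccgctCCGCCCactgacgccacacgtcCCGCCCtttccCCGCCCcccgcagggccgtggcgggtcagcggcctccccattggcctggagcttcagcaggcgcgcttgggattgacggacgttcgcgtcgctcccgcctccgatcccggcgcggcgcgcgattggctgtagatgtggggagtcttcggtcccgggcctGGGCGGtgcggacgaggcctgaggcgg

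Sun2 1433832_at read 167, 157, 221, 202 and 159 in WT and 215, 186, 273, 191 and 239 in KO embryos. The KO embryos KO3 and KO5 lay above every WT embryo, and the other 3 lay within the WT range. The difference was 0.26 with a standard error of 0.14. The second Sun2 probe set, 1439238_at, was dim (46.0 to 79.4) and differed by 0.01, and the correlation between the Sun2 probe sets was 0.002.

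**Figure D4:**
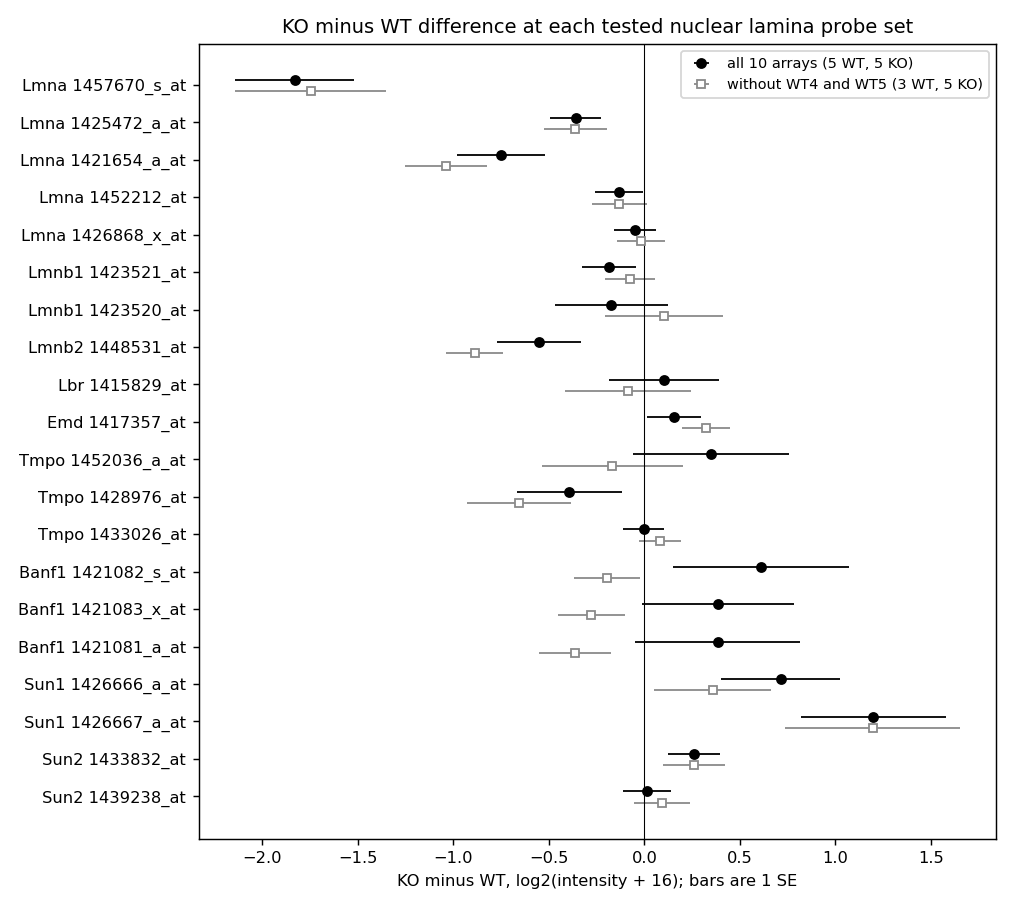
KO minus WT difference on the log2(intensity + 16) scale at each of the 20 tested probe sets, with bars of 1 standard error, for all 10 arrays (filled) and without WT4 and WT5 (open). Lmna 1457670_s_at lies at -1.83 and -1.75 and Sun1 1426667_a_at at 1.20 and 1.19, whereas the 3 Banf1 probe sets change sign.

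The division of the arrays by the bioB control was not used to choose the genes, so it was tested for them with genotype as a term. By limma, 0 of the 20 probe sets and 0% of all 23174 were called between the sets (smallest adjusted p 0.180 among the 20 and 0.164 over all). At an unadjusted p under 0.05 there were 6 of the 20 and 2965 of 23174. The 6 were all higher in the high-bioB set: the 3 Banf1 probe sets (1.21, 1.04 and 1.16 log2 units), Sun1 1426666_a_at (0.75), Tmpo 1428976_at (0.59) and Lmnb2 1448531_at (0.47). The direction among the 2965 was not counted, and the Banf1 probe sets correlated with each other at 0.97 to 0.99. The common direction is therefore not read as a trait of the members. WT4 and WT5 are the only WT embryos of the low set, and among KO embryos alone the set differences were 0.40, 0.42 and 0.46 for Banf1 and 0.10 for Lmnb2, against 2.02, 1.66 and 1.87 and 0.84 among WT embryos. This breakdown by genotype was added after the values were seen and was not tested. For Sun1 they were 0.61 among KO and 0.89 among WT embryos, and for Tmpo 0.53 and 0.66. Lmna 1457670_s_at differed by -0.15 between the sets, with a standard error of 0.33.

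Across the 10 embryos, the brightest probe sets of the members showed no common pattern. Of their 36 combinations, the highest correlation was that of Banf1 with Sun1 (r = 0.77; 0.52 over the 8 embryos without WT4 and WT5) and the lowest that of Lmnb2 with Emd (-0.77; -0.76). Lmna correlated with Lmnb2 at 0.54 (0.81 without WT4 and WT5), with Lmnb1 at 0.24 and with Sun1 at -0.40. The Tmpo and Banf1 value turned from 0.61 to -0.52 without WT4 and WT5. These correlations run over arrays that differ in genotype, bioB set and recovery of transcript length. The part of each of these in the correlations was not tested.

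The genes whose probe sets followed the lamins most closely over the 10 embryos were listed in the same way. For Lmna they were Ercc4 (r = 0.96), a subunit of a DNA repair nuclease, Ssh1 (0.95), a phosphatase that activates cofilin, and Ago4 (0.95), an Argonaute protein. Their KO minus WT differences were -0.72, -1.59 and -0.87 and gave no call (limma adjusted p 0.109, 0.0508 and 0.203). For Lmnb1 they were Fermt2 (0.96), a kindlin of integrin adhesions, Tiam1 (0.93), an activator of RAC, and Ddo (0.91), and for Lmnb2 the zinc finger gene Zfp64 (0.97), the adaptor Grb7 (0.96) and the kinase Mapk6 (0.94). No gene stood in more than 1 of these lists. The lamin genes themselves correlated too weakly to allow a shared one, so nothing is read from this. Those correlations were 0.54 (Lmna with Lmnb2), 0.24 (Lmna with Lmnb1) and 0.10 (Lmnb1 with Lmnb2).

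Other genes of the nuclear envelope were read from lists set by function, each gene at its brightest probe set. Of 72 genes listed, 68 were on the table and 63 passed the filter, and 0 were called by limma in either direction (9 of the 63 at an unadjusted p under 0.05, against 2329 of all 23174 probe sets, or 10.05%). Their median difference was -0.04, with 25 higher and 38 lower in KO embryos. Among the 5 enzymes that process lamins, Fntb, a subunit of the farnesyltransferase, differed by -0.41 and the methyltransferase gene Icmt by 0.02. Among 10 further LEM domain and inner membrane proteins, the differences ran from -0.37 (Ankle1) to 0.67 (Tor1aip1, which encodes the lamin-binding LAP1).

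The 4 tested KASH and other SUN domain genes, the partners of SUN1 and SUN2, differed by -0.09 (Syne1) to 0.02 (Syne4). They were dim, with WT means from 5.57 (Syne3) to 6.78 (Syne4) against the filter at 5.55. The log2 scale used understates changes there, so the narrow range is not read as a lack of change. Lrmp, Sun3, Sun5 and Spag4 of this list were below the filter. In the nuclear pore complex 24 genes were tested, 8 higher and 16 lower, with the ends at Nup210 and Ndc1, both transmembrane components. The WT and KO levels were 8.18 ± 0.90 and 7.07 ± 0.36 for Nup210 (SD, n = 5 each), a difference of -1.11, and of -0.75 without WT4 and WT5. They were 7.77 ± 0.72 and 8.60 ± 0.50 for Ndc1 (difference 0.83, and 0.36 without WT4 and WT5). The 12 genes of envelope disassembly and reassembly ran from -0.43 (Vrk2, a kinase related to the one that releases BAF) to 0.34 (Ppp2r2a). The 8 heterochromatin partners ran from -0.39 (Hdac3, a deacetylase that binds emerin and LAP2) to 0.26 (the methyltransferase gene Ehmt2).

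**Figure D5:**
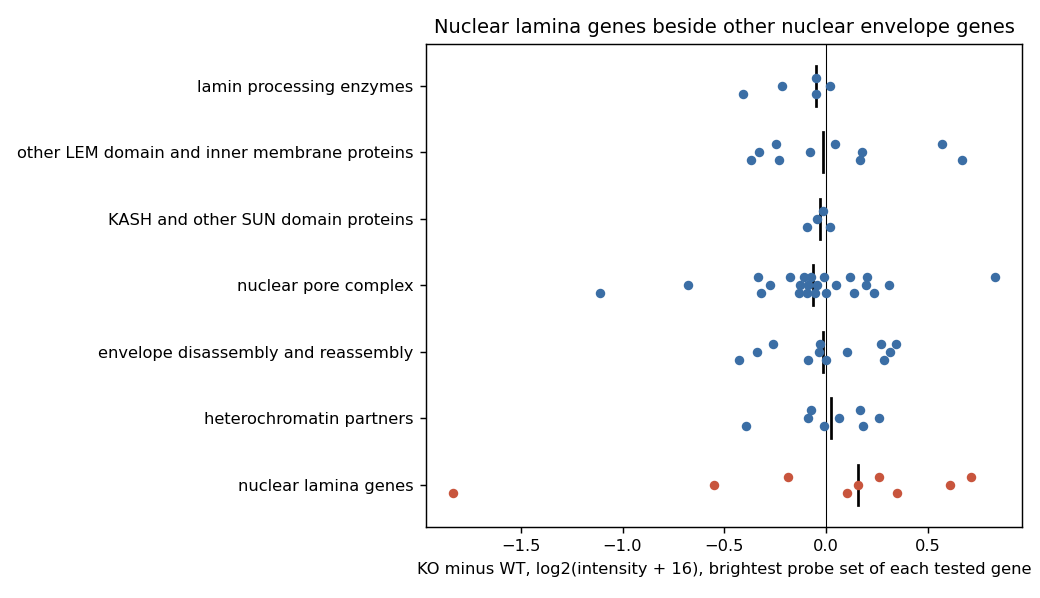
KO minus WT difference on the log2(intensity + 16) scale of each tested gene at its brightest probe set, for the 9 nuclear lamina genes (red, bottom row) and 6 lists of other nuclear envelope genes (blue); points are genes, spread vertically only to keep them apart, and black bars are medians. At its brightest probe set, Lmna (-1.83) lies beyond every gene of the other lists. Their lowest and highest values are those of Nup210 (-1.11) and Ndc1 (0.83). The other Lmna probe sets, not drawn here, lie within that range (-0.75 to -0.05). The lamina genes were listed with this comparison known, so nothing is read from the position of Lmna.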

How the data were processed

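Single embryos were measured on Affymetrix expression arrays, 1 array each. Per the labels' protocols, cDNA was made by the method of Kurimoto and colleagues and the label was biotin. As background, that method amplifies the 3′ parts of transcripts, so probe sets far from the 3′ end can read low. Per the series' design text, GeneSpring GX was used. The deposited values are intensities on a linear scale, judged from the values. Background correction, probe summary and normalization: not given in the sources used here.

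All 53 control probe sets were set aside. Symbols were read from the array annotation (30854 probe sets with 1 symbol, 781 with several, 6988 with none). Values were taken as log2(intensity + 16), and probe sets with a mean below the 40th percentile were left out. KO was tested against WT by lmFit and eBayes of limma 3.58.1 (R 4.3.3; two-sided, no covariate), Benjamini-Hochberg adjusted over 23174 probe sets at 0.05, after a check on simulated data. The number of arrays limits precision. The members, the lists and the tests were chosen with earlier results of these data known. All members are named at every probe set, with the brightest representing the gene; of the other lists, the genes called or else the gene at each end are named; for each lamin gene, the 3 genes of highest Pearson correlation. Alternatives were quantile normalization, median centring, other filters and pseudocounts, a trended robust prior, array weights, blocks by embryo number or bioB set, each bioB set alone, and leaving out WT4 with WT5 or each embryo.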

Additional observations from a re-analysis of the deposited data

Results flagged for a closer look

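Over the 40 groups of 5 embryos examined (20 probe sets in each genotype), 1 embryo lay far from the rest of its genotype. The limit used is one that chance passes in about 1 group in 20, or 2 of the 40, so this number is no more than chance gives. At the dim Lmna probe set 1426868_x_at, KO3 read 21.7, and the other 4 KO embryos read 30.6 to 33.6. The gap was 0.77 of the range of the KO embryos on the log2 scale. KO3 was also the lowest embryo at the other dim Lmna probe set, 1452212_at (34.4).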

How the results depend on the processing

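The difference at Lmna 1457670_s_at stayed between -2.10 and -1.59 in all 23 alternatives, and its adjusted p was under 0.05 in 6 of them (0.00911 to 0.441 over all). The number of nuclear lamina probe sets called was 0 with no level filter, a pseudocount of 64, array weights, the replicate block, the bioB block, within either bioB set and without WT4 and WT5, and 0 to 1 when single embryos were left out. The number called over all probe sets was 24 with the replicate block, 1 within the high-bioB set and 0 within the low-bioB set, 45 to 63 when single embryos were left out and 73 without WT4 and WT5. In the fit with a replicate block for embryo number, the Lmna difference was -1.83 (adjusted p = 0.139). The labels do not say whether same-numbered embryos share more than their number. Their deviations correlated at -0.03 to 0.18, and 2 of the 5 numbers matched best with their own. The sign changed in at least 1 alternative at the 3 Banf1, the Lbr and the Emd probe sets, Lmna 1452212_at and 1426868_x_at, Lmnb1 1423520_at, Tmpo 1452036_a_at and 1433026_at, and Sun2 1439238_at. It did not change at the other 9 tested probe sets. For these changes the cause was not tested.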
